A study of Mus musculus with 6 samples.

Results

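Intraflagellar transport (IFT) carries cargo along the microtubules of the cilium, an antenna-like projection of the cell. Kinesin-2 motors move IFT trains towards the ciliary tip and the motor dynein-2 brings them back. The trains are built from the IFT-A and IFT-B complexes, and IFT-B is divided into a core (IFT-B1) and a peripheral part (IFT-B2). Blood cells generally lack a primary cilium, yet T cells express IFT proteins, and IFT20 with its partners helps to deliver recycling T cell receptors to the immune synapse.

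The 33 genes described here encode IFT-A with its adaptor Tulp3, IFT-B, dynein-2 and kinesin-2, and they were chosen by name from 19938 genes with a usable probe set. The set was proposed with earlier results of these arrays in view, so the count of members called describes it and is not independent evidence. For each gene the probe set with the highest mean was used, which mattered for Tctex1d2, with 2 probe sets. All 33 were found, and 31 passed the filter on dim genes, a mean log2 intensity of 6.70 over the 6 arrays. Ttc30b of the IFT-B core and the dynein-2 light intermediate chain Dync2li1 lay below it and were not tested.

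The arrays profiled mouse T cell acute lymphoblastic leukemia (T-ALL) driven by Notch-IC, the active intracellular part of Notch, which had been put into blood progenitors by retrovirus. All leukemias carried the Zfx fl/y allele and a tamoxifen-inducible Cre-ER transgene, whose promoter is not given in the sources used here. The 3 independent leukemias, lines 14843, 14844 and 14846, were each passed to sublethally irradiated secondary recipients. Starting 10 days after transplant these mice received Vehicle, or Tamoxifen at 5 mg per day, by gavage over 3 days. GFP+ cells were collected by sorting 48 h after dosing ended. Vehicle arrays are labelled ZFX flox and Tamoxifen arrays ZFX null, with 3 arrays in each group and 1 per line. No group received Tamoxifen without Cre or without the floxed allele, so the drug, Cre activity and loss of Zfx cannot be told apart.

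The arrays correlated with each other at 0.991 to 0.996 over all probe sets. The Zfx probe set was at 10.98, 10.90 and 10.71 log2 intensity in Vehicle arrays of lines 14843, 14844 and 14846 and at 10.96, 10.98 and 10.86 in the Tamoxifen arrays. The groups overlapped, with a difference of 0.07 ± 0.06 (SE). The sources used here give neither the deleted part of Zfx nor the position of its probes, so the probe set cannot serve as a check of the labels. Of 10 usable T lineage markers, all were above the filter and 0 changed by limma, with 2 at an unadjusted p under 0.05. Their summed linear intensity spanned 51323 to 58290 in Vehicle and 49051 to 55731 in Tamoxifen arrays. Cycling markers, 9 of 10 usable, also had 0 changed and 0 at an unadjusted p under 0.05, and their sums spanned 53474 to 61178 and 53979 to 61382. Bulk arrays cannot tell fewer cells of a type from less RNA per cell.

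Parts of the genes' promoters are shown first, because Zfx is a DNA-binding factor with a known motif. The sequences come from RefSeq on build GRCm38.p6, which held a window from 250 bases before to 50 bases after the annotated start for 28 of the 31 tested members. Ift122, Ift81 and Ift80 had no entry. Each window was searched for AGGCCT, the core of the motif known for Zfx, which reads the same on both strands, and on both strands for GTTGCC, a half-site of the X-box bound by RFX factors, the known activators of ciliary genes. Capitals mark these letters. The promoters of Kif3a, which held both motifs, Ift57, which held the half-site at 2 places, and Ift22, the member with the largest drop and neither motif, are given for the bases before the start, at chr11:53567119-53567368, chr16:49699044-49699293 and chr5:136907900-136908149, all on the plus strand.
Kif3a: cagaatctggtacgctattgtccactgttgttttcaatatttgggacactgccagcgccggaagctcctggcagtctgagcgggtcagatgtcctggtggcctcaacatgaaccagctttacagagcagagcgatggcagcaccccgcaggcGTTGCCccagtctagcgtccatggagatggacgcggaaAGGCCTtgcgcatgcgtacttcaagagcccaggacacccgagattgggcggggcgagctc
Ift57: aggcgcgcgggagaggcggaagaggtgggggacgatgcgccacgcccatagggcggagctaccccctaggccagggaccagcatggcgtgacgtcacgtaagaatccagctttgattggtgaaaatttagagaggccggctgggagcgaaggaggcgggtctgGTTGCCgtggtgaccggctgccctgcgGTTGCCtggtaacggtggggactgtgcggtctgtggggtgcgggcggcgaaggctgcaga
Ift22: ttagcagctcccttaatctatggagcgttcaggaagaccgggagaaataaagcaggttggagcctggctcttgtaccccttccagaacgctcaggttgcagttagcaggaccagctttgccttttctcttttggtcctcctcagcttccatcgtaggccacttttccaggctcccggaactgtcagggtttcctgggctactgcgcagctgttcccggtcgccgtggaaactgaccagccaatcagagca

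The other AGGCCT matches are shown with the bases around them, to allow the members that fell (Wdr34, Cluap1, Ift74) to be read beside those that were not called (Dync2h1, Ift88). They lie at chr2:30048831-30048860 on the minus strand, chr16:3909019-3909048 and chr4:94614518-94614540 on the plus strand, chr9:7177074-7177103 on the minus strand and chr14:57424045-57424074 on the plus strand.
Wdr34: tgcgcgtcgcccAGGCCTtttcggcgcgtt
Cluap1: gcacgctgtccaAGGCCTctgagcgttgct
Ift74: ggggggactctgAGGCCTggctc
Dync2h1: agcctaccttgcAGGCCTcagatgtcctac
Ift88: cacgcggcgcggAGGCCTgtgggagcggct

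AGGCCT stood in the windows of 4 of the 8 members that fell and had an entry, against 2 of the 20 members that were not called. Counting the start base as 1, its first base was base 32, 23 and 40 in Wdr34, Cluap1 and Ift74. It lay 60 bases before the start in Kif3a, and 33 and 14 bases before it in Dync2h1 and Ift88. Over all annotated windows 10.3% held it, as did 12.7% of 11031 tested genes, 16.9% of the genes called lower and 13.5% of those called higher. The half-site GTTGCC stood in the windows of 2 of the 8 members that fell, Ift57 and Kif3a, and of 11 of the 20 not called. Over all windows 12.5% held it, as did 14.7% of tested genes, 14.3% of those called lower and 10.8% of those called higher. No match of one motif overlapped one of the other in the members. These shares were not tested, and a match is a run of letters, not a measured binding site.

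**Figure D1:**
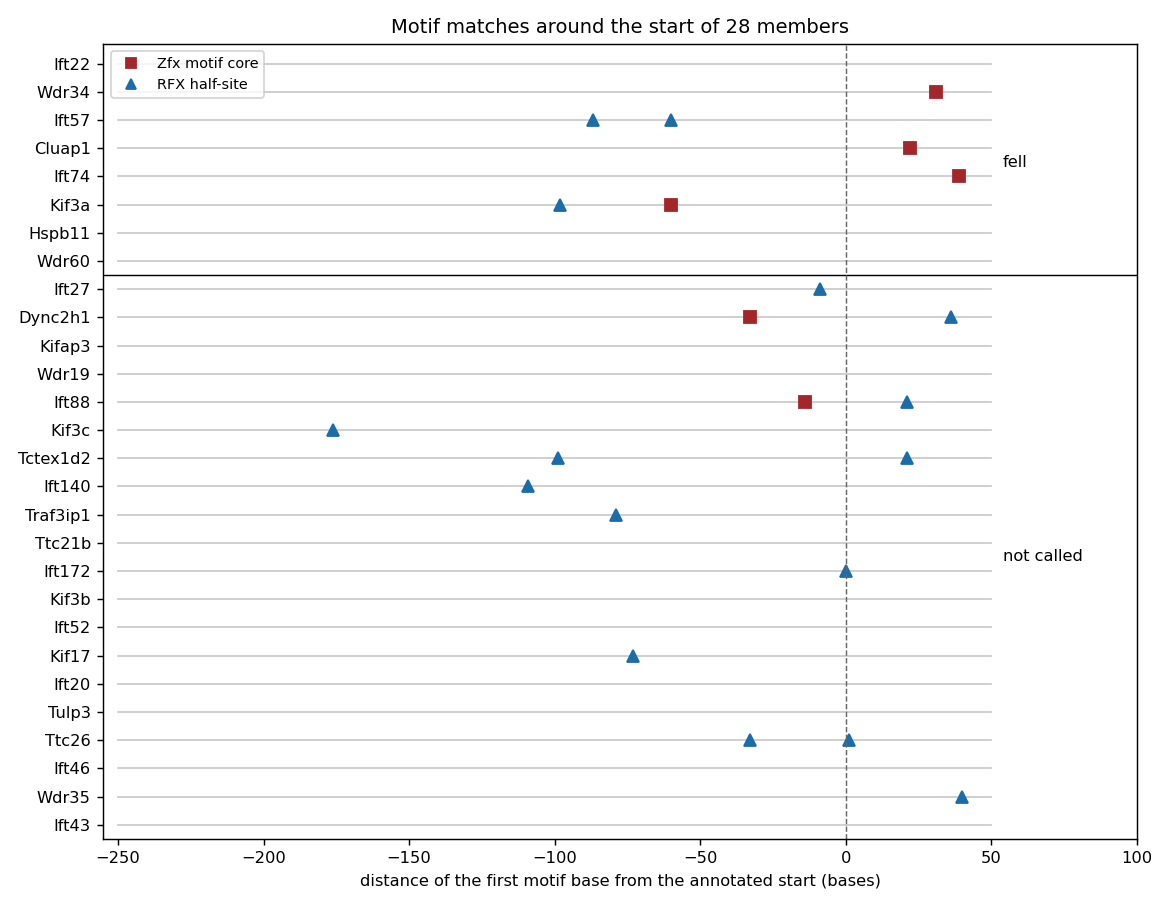
Matches to the Zfx motif core (squares) and the RFX half-site (triangles) in the windows of 28 members, placed by the distance in bases from the annotated start (dashed line) to the first base of the motif. Members that fell are above the line and members not called below it, each ordered by their treatment difference. Squares stand in 4 of the 8 members that fell and in 2 of the 20 not called.

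The treatment comparison asked which of these genes differed after Tamoxifen in cells that carry the floxed Zfx allele. Of the 31 tested members, 10 fell and 0 rose by limma with line as a block, at an adjusted p under 0.05, so 32.3% of the members were lower. Over all 13956 tested genes 4.93% were called lower and 1.30% higher, or 6.23% in either direction. Lower genes thus made up 79.1% of all calls. With arrays centred by the median of tested genes they made up 57.7% (562 lower, 412 higher), and the same 10 members were called. With arrays centred over genes or over all probe sets the share rose instead, to 85.0% and 83.3%. The median difference over all tested genes was 0.0255 in the main fit and 0.0847 with centring by tested genes. It was -0.0023 and 0.0119 with the other centrings, so the split of calls moved with this shift. The members that fell were Ift22, Ift81, Ift74 and Hspb11 of the IFT-B core, Ift57 and Cluap1 of the IFT-B periphery, Wdr34 and Wdr60 of dynein-2, Kif3a of kinesin-2 and Ift122 of IFT-A. Of these, Ift74 passed the filter only through its Vehicle values, and without the filter it was not called (limma adjusted p of 0.060). The fitted drops of the 10 members were 1.37-fold to 1.89-fold. Each of the 10 was lower in all 3 lines, with log2 differences within lines from -1.19 to -0.30. The groups did not overlap for any of the 10. Among the 21 members not called, 15 differed by less than 0.2 on the log2 scale, and 5 had an unadjusted p under 0.05, of which only Ift43 was higher. Groups lay apart with Tamoxifen lower for 12 of the 31 and with Tamoxifen higher for 2, against 11.5% and 12.2% of all tested genes (23.7% in either direction).

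The number of calls moved most with line 14844. Without line 14844 only Ift22 was called, at an adjusted p of 0.043, while 0.480% of all tested genes were called lower in that fit. The other 9 then had adjusted p-values from 0.057 to 0.15, at differences from -1.03 to -0.42. Without line 14843 or line 14846, 9 of the 10 were called, beside 3.06% and 3.58% of all tested genes called lower. Without line as a block 7 were called, beside 1.97% of all tested genes called lower. The adjusted p was then 0.093 for Ift74, 0.093 for Hspb11 and 0.19 for Kif3a.

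**Figure D2:**
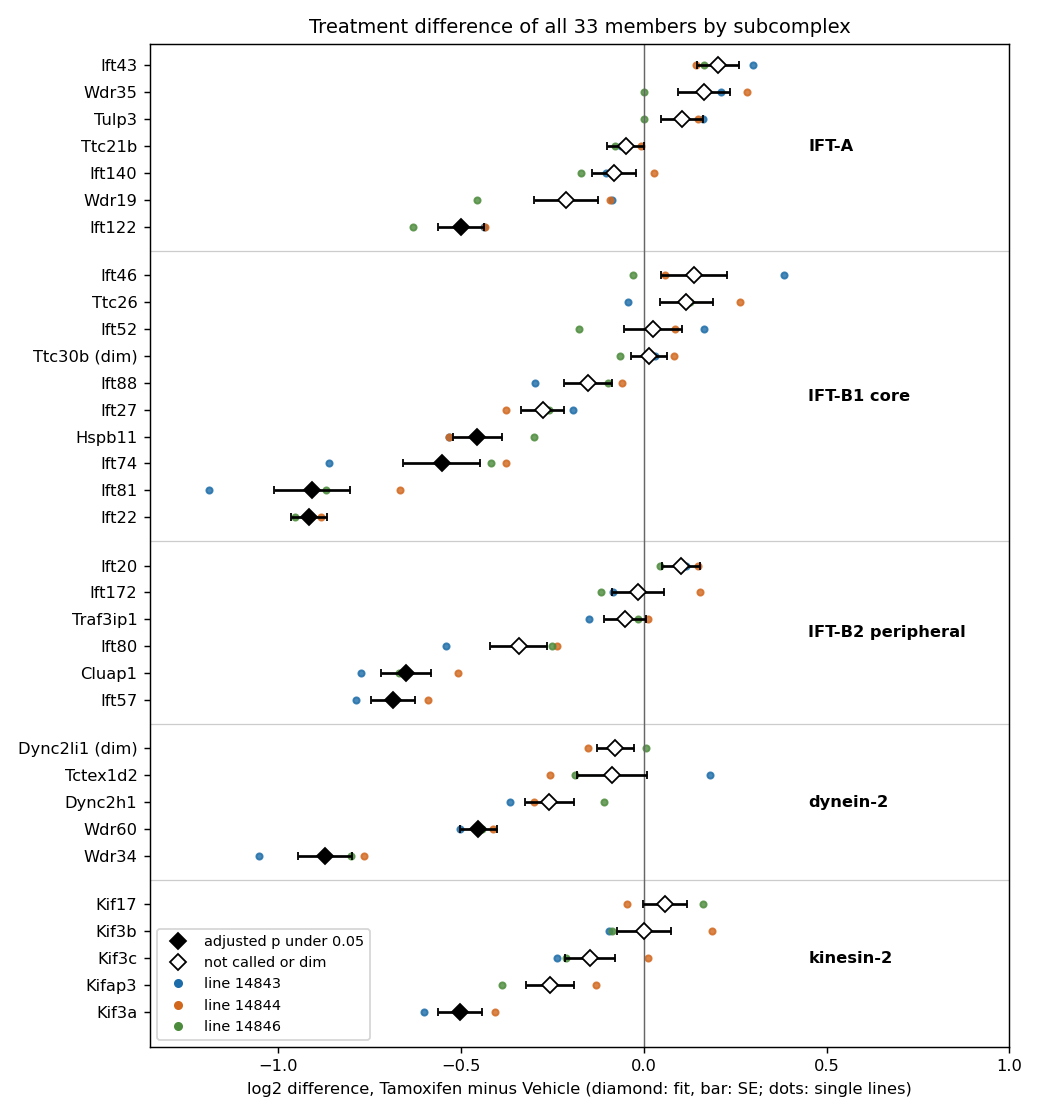
The log2 difference between Tamoxifen and Vehicle for all 33 members, grouped by subcomplex; diamonds with bars are the fitted difference and its SE, dots the 3 lines, and filled diamonds the 10 members with an adjusted p under 0.05. Filled diamonds occur in each subcomplex and all lie between -0.92 and -0.45.

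Ift22, a small GTPase that docks on the Ift74 and Ift81 pair, showed the largest difference. It was at 9.22, 9.34 and 9.32 log2 intensity in Vehicle arrays of lines 14843, 14844 and 14846, and at 8.31, 8.46 and 8.36 in the Tamoxifen arrays of these lines. All Tamoxifen arrays were low and the 3 lines lay close together in both groups. The difference was -0.92 ± 0.05 (SE), a 1.89-fold drop with a limma adjusted p of 0.0027, and within lines it was -0.91, -0.88 and -0.95. Its call held under each of the 11 alternative settings, with adjusted p-values from 0.0012 to 0.043.

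Ift81 and Ift74 form the coiled-coil pair that holds the IFT-B core together and binds tubulin cargo, and both fell. Ift81 was at 8.20, 8.05 and 7.88 in Vehicle and at 7.01, 7.39 and 7.01 in Tamoxifen arrays of the lines in the same order. Line 14844 kept the highest Tamoxifen value, and the groups did not overlap. Its difference was -0.91 ± 0.10 (SE), with an adjusted p of 0.013. Ift74 stood just above the filter, with a mean of 6.72, at 7.05, 7.05 and 6.88 in Vehicle and 6.19, 6.67 and 6.46 in Tamoxifen arrays. All 3 Tamoxifen values lay under the filter of 6.70, so Ift74 was tested only through its higher Vehicle values. The drop was widest in line 14843, at -0.86 against -0.38 and -0.42 in the others. The fitted difference was -0.55 ± 0.11, with an adjusted p of 0.045, and the call was lost at 0.060 without the filter on dim genes and at 0.060 without line 14846.

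Hspb11, known as Ift25, and the GTPase Ift27 form another pair at the edge of the core, needed for exporting receptors from the cilium rather than for building it. Hspb11 was at 9.08, 9.20 and 9.22 in Vehicle and 8.55, 8.67 and 8.92 in Tamoxifen arrays. Line 14846 was highest in both groups and moved least, by -0.30 against -0.53 in each of the other lines. The fitted difference was -0.45 ± 0.07 (SE), with an adjusted p of 0.024, and of 0.067 without line 14843. Ift27 was at 8.93, 9.56 and 9.54 in Vehicle and at 8.73, 9.19 and 9.28 in Tamoxifen arrays. Line 14843 was low in both groups, so the groups overlapped, although each line had its lower value under Tamoxifen. Its difference of -0.28 ± 0.06 had an adjusted p of 0.059, and of 0.044 with arrays centred by their gene median, where it was a call.

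The remaining core members were not called. Ift88, the subunit whose loss is classically used to remove cilia in mice, gave -0.15 ± 0.07 (SE), with an adjusted p of 0.24. Ift52, which bridges the core to the periphery, and Ift46, which brings in outer dynein arm cargo, gave 0.03 ± 0.08 and 0.14 ± 0.09. Ttc26, or Ift56, gave 0.12 ± 0.07. For these last 3 the sign differed between lines, and Ift46 was at 10.43 in the Vehicle array of line 14843 but between 10.70 and 10.82 on the other 5 arrays. Dim Ttc30b, or Ift70b, lay between 5.16 and 5.26 on all arrays.

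In the IFT-B periphery the partners Ift57 and Cluap1, which bind each other as Ift57 and Ift38, both fell. Ift57 was at 9.23, 9.43 and 9.19 in Vehicle and 8.44, 8.84 and 8.51 in Tamoxifen arrays. Line 14844 was highest in both groups, and every Tamoxifen value lay under the lowest Vehicle value. The difference was -0.69 ± 0.06 (SE), with an adjusted p of 0.0070. Cluap1 was at 10.36, 10.42 and 10.37 in Vehicle arrays, a narrow spread, and at 9.58, 9.91 and 9.70 in Tamoxifen arrays. The groups again lay apart, and the difference was -0.65 ± 0.07, with an adjusted p of 0.011.

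The other peripheral pair, Ift20 and Traf3ip1 (Ift54), did not pass the test. Ift20, the Golgi-associated subunit known for its part at the immune synapse, was at 11.96, 11.96 and 12.001 in Vehicle and at 12.08, 12.11 and 12.05 in Tamoxifen arrays. All 3 Tamoxifen values were above the Vehicle values, by a small difference of 0.10 ± 0.05 (SE) with an adjusted p of 0.30. Traf3ip1 gave -0.05 ± 0.06 and the large scaffold Ift172 -0.02 ± 0.07, and their lines did not share a sign. Ift80, the remaining beta-propeller subunit, was at 11.02, 10.85 and 10.79 in Vehicle and 10.48, 10.61 and 10.54 in Tamoxifen arrays. Its groups lay apart, but the difference of -0.34 ± 0.08 had an adjusted p of 0.069, and of 0.049 (a call) with arrays centred by their gene median.

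Within IFT-A, whose complex serves the return journey and the import of membrane proteins, 1 of 7 tested members fell. Ift122, a core subunit, was at 7.95, 8.10 and 8.05 in Vehicle and 7.51, 7.66 and 7.42 in Tamoxifen arrays. The groups lay apart, and line 14846 moved most, by -0.63 against -0.44 and -0.43. The fitted difference was -0.50 ± 0.06 (SE), with an adjusted p of 0.016. The other 2 core subunits, Wdr19 (Ift144) and Ift140, gave -0.21 ± 0.09 and -0.08 ± 0.06. The peripheral subunits Ttc21b (Ift139), Wdr35 (Ift121) and Ift43 gave -0.05 ± 0.05, 0.16 ± 0.07 and 0.20 ± 0.06. Of these Ift43 was higher under Tamoxifen in each line, at 7.39, 7.47 and 7.36 in Vehicle and 7.69, 7.62 and 7.53 in Tamoxifen arrays, with an adjusted p of 0.11. Tulp3, the adaptor that links IFT-A to receptors of the ciliary membrane, gave 0.10 ± 0.06.

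Dynein-2 had 2 of 4 tested members called, both intermediate chains of the motor. Wdr34 (Dync2i2) was at 9.35, 9.47 and 9.53 in Vehicle and at 8.30, 8.71 and 8.74 in Tamoxifen arrays. Line 14843 was lowest in both groups, and the groups did not overlap. The difference was -0.87 ± 0.07 (SE), a 1.83-fold drop with an adjusted p of 0.0064. Wdr60 (Dync2i1) was at 7.97, 7.85 and 7.79 in Vehicle and at 7.47, 7.44 and 7.35 in Tamoxifen arrays, and the drop was of similar size in each line, at -0.50, -0.41 and -0.44. Its fitted difference was -0.45 ± 0.05, with an adjusted p of 0.013.

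The heavy chain Dync2h1, which carries the motor domain, was at 8.61, 8.70 and 8.61 in Vehicle and 8.24, 8.40 and 8.499 in Tamoxifen arrays. The groups lay apart by a small margin, and the difference of -0.26 ± 0.07 (SE) had an adjusted p of 0.093. The light chain gene Tctex1d2 gave -0.09 ± 0.10 on the probe set used, with line 14843 moving up and the others down. Its other probe set, with a mean of 5.95, was below the filter. The light intermediate chain Dync2li1 was also dim, at 5.84 to 5.99 on all arrays.

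Kinesin-2 exists as a trimer of Kif3a, Kif3b or Kif3c and the adaptor Kifap3, and as dimers of Kif17, and 1 of its 5 members fell. Kif3a was at 7.91, 7.89 and 7.52 in Vehicle and at 7.31, 7.49 and 7.02 in Tamoxifen arrays. Line 14846 was low in both groups, and its Vehicle value stood barely above the highest Tamoxifen value, that of line 14844. The difference was -0.50 ± 0.06 (SE), with an adjusted p of 0.014, and of 0.19 without line as a block. Its motor partner Kif3b gave 0.00 ± 0.07, at 9.19, 9.08 and 9.12 in Vehicle and 9.10, 9.27 and 9.03 in Tamoxifen arrays, where the groups overlapped. Kifap3 gave -0.26 ± 0.07, lower in each line but with an adjusted p of 0.092, and Kif3c and Kif17 gave -0.15 ± 0.07 and 0.06 ± 0.06.

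**Figure D3:**
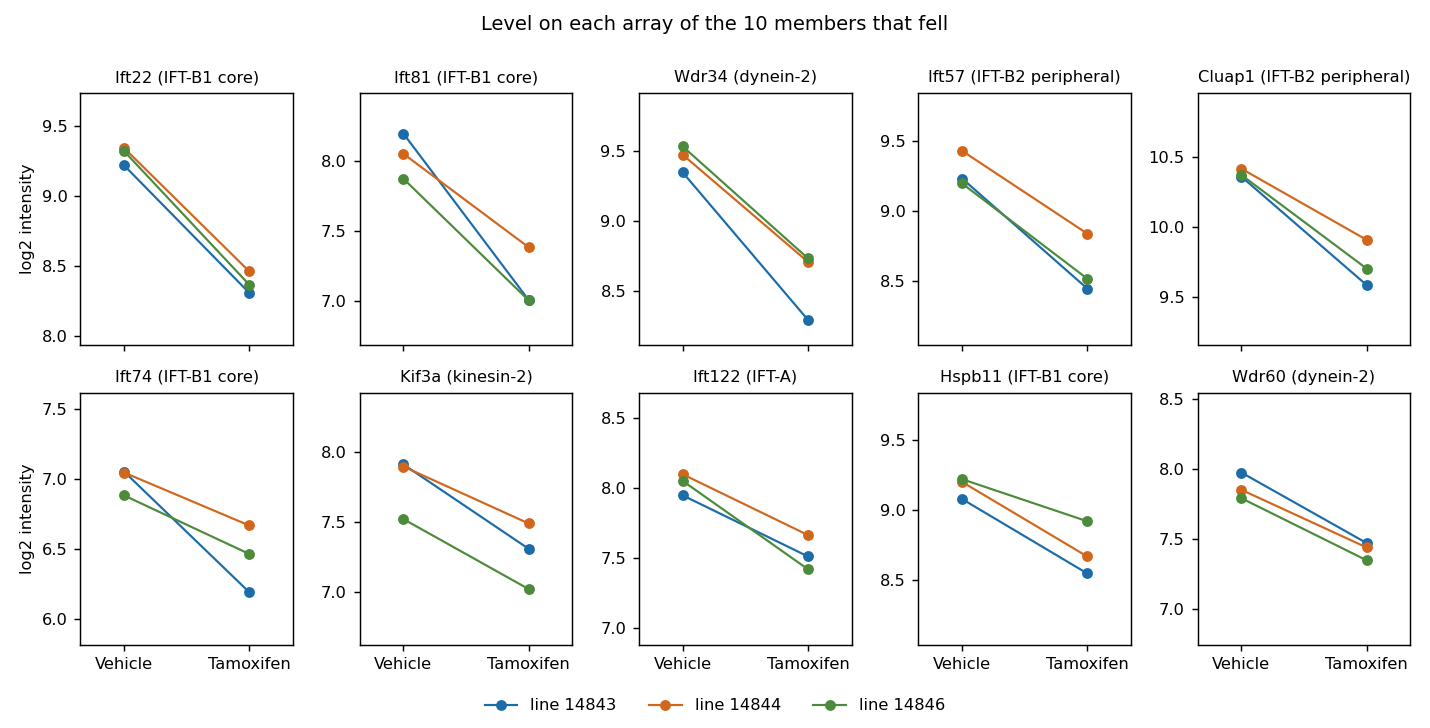
The log2 intensity of the 10 members that fell on each array, with the Vehicle and Tamoxifen arrays of a line joined; all panels span the same range of log2 units. Every joined pair slopes down, and line 14844 has the highest Tamoxifen value in Ift22, Ift81, Ift57, Cluap1, Ift74, Kif3a and Ift122.

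Described by subcomplex, the median log2 difference was -0.36 for 4 tested dynein-2 genes, -0.28 for 9 of the IFT-B core, -0.20 for 6 of the IFT-B periphery, -0.15 for 5 of kinesin-2 and -0.05 for 7 of IFT-A. The median was -0.15 over the 31 members and 0.03 over all tested genes. Within lines 14843, 14844 and 14846 the medians were -0.44, -0.36 and -0.32 for dynein-2, -0.30, -0.38 and -0.26 for the IFT-B core, and -0.06, 0.03 and -0.08 for IFT-A. Those of the IFT-B periphery were -0.35, -0.11 and -0.18, and those of kinesin-2 were -0.24, -0.04 and -0.21. The fitted median of the IFT-B periphery was -0.12 without line 14843, and that of kinesin-2 was -0.23 without line 14844. Calls numbered 4 of 9 in the IFT-B core, 2 of 6 in its periphery, 2 of 4 in dynein-2, 1 of 5 in kinesin-2 and 1 of 7 in IFT-A. These are counts over few genes, and differences between subcomplexes were not tested. Calls fell on both partners of Ift74 with Ift81, Ift57 with Cluap1, and Wdr34 with Wdr60, and on 1 partner of Hspb11 with Ift27 and of Kif3a with Kif3b. Neither partner was called for Ift88 with Ift52, Ift46 with Ttc26, or Ift20 with Traf3ip1. The pairs were not among the planned comparisons, so this tally only describes the calls and was not tested. It counts Ift74, which passed the filter only through its Vehicle values.

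The size of the drop varied by line. Of the 10 members that fell, 7 dropped most in line 14843, 1 in line 14844 and 2 in line 14846. Their median differences were -0.78, -0.52 and -0.65 in these lines, while the medians over all tested genes were 0.02 in each. With 1 array per line and treatment, differences between lines in the response could not be tested.

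Levels of the members were also compared between the 3 leukemias. By limma's moderated F test 1 of the 31 tested members differed between lines, against 3.11% of all tested genes. This was Ift27, whose mean over both treatments was 8.83 in line 14843 against 9.38 and 9.41 in lines 14844 and 14846, with an adjusted p of 0.026. Line 14843 was thus the low one on both of its arrays. Markers of other cell types differed between the same lines, with 6 of 45 tested markers called. They were 3 of 7 myeloid markers (Lyz2, Itgam, S100a8), 2 of 3 NK markers (Klrb1c, Nkg7) and 1 of 5 of stroma (Col1a2), and 0 of 10 T lineage markers. Line 14843 was highest for Itgam, at a mean of 9.75 against 8.78 and 8.77, and lowest for Lyz2, at 8.001 against 8.72 and 8.55. Line 14844 was highest for S100a8, at 8.47 against 7.32 and 7.58, and for Col1a2, at 9.49 against 8.52 and 8.23. Line 14846 was highest for Klrb1c, at 10.37 against 7.04 and 7.64, and for Nkg7, at 8.675 against 7.15 and 7.18. The rest of the NK list did not share this. Prf1 was not called between lines, at means of 9.13, 8.83 and 9.03 in lines 14843, 14844 and 14846, and Ncr1, Klrk1 and Eomes were below the filter. The summed linear intensity of the myeloid list was 2332 to 2475 in line 14843, 2507 to 2783 in line 14844 and 2124 to 2258 in line 14846. That of the NK list was 971 to 1058, 862 to 1105 and 2228 to 2655, and that of stroma 8134 to 11049, 8529 to 9575 and 7304 to 9039. The brightest gene in the stroma sum was Pdgfrb, at line means of 12.61, 12.46 and 12.21, which was not called between lines. Col1a1 was also not called and, unlike Col1a2, was highest in line 14843, at 8.89 against 8.67 and 8.70. Kdr and Cxcl12 were below the filter. The part of these markers in the members' line values was not tested. For Ift27 the adjusted p between lines was 0.057 without line 14844, and 0.91 without line 14843, the low one. Without line 14846 it was 0.041, still a call. Tulp3 ran from 10.16 in line 14843 through 9.95 to 9.65 in line 14846, with an adjusted p of 0.0503. Kif3a, at 7.61, 7.69 and 7.27, had an adjusted p of 0.076 and became a call at 0.045 when line 14843 was left out. Ift20 had the smallest range of line means of the 33 members, 0.01.

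Genes that work with IFT were taken from 8 lists of 116 genes, of which 89 were tested, 14 were dim, 4 shared their probe sets with other symbols and 9 were unnamed in the annotation used here. Of the 89 tested, 13 fell, or 14.6%, and 0 rose by limma, with 3 higher at an unadjusted p under 0.05. Over all tested genes 4.93% were called lower, and that share stands beside each list below. Their median log2 difference was -0.01. The lists ran from 1 of 10 called lower (dynactin and dynein regulators) to 3 of 15 (transition zone), and whether they differ from the members was not tested. Without line as a block 4 of the 13 were called, Iqcb1, Tctn1, Sufu and Ndel1, beside 1.97% of all tested genes called lower. Fits without lines 14843, 14844 or 14846 gave 5, 2 and 8 calls lower among the 89, and Iqcb1 and Dynlt3 alone were called without line 14844. The 8 calls without line 14846 were not all among the 13. The shares of all tested genes called lower in these fits were 3.06%, 0.480% and 3.58%.

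The transition zone is the gate at the base of the cilium, and 3 of its 15 tested genes fell. Iqcb1 (Nphp5) had the largest drop, 2.75-fold, with a log2 intensity of 8.78 ± 0.17 in Vehicle and 7.32 ± 0.09 in Tamoxifen arrays (SD, n = 3 each) and a limma adjusted p of 0.0030. Tctn1 and B9d1, subunits of the gate complex, gave -0.63 ± 0.08 and -0.32 ± 0.06 (SE). With all probe sets averaged Tctn1 gave -0.34, still called, and B9d1 had an adjusted p of 0.055 without the filter on dim genes. The BBSome is a coat that rides on IFT trains, and its list also held assembly factors (Bbs10, Bbs12, Mkks) and the regulator Lztfl1. Of its 8 tested genes 1 fell, the coat subunit Bbs2, at -0.32 ± 0.06. Among 14 regulators and membrane GTPases, Rab23 and the lipid-binding carrier Pde6d fell, at -0.41 ± 0.07 and -0.32 ± 0.06. Each of these 6 genes was lower under Tamoxifen in all 3 lines. With arrays centred by the median of tested genes Bbs2, B9d1, Rab23 and Pde6d were not called, at adjusted p-values of 0.057, 0.081, 0.052 and 0.054, and 9 of the 89 genes were.

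Hedgehog signalling runs through the cilium in vertebrates and depends on IFT, and 2 of its 13 tested genes fell. Smo, the membrane transducer of the pathway, was at 11.88 ± 0.15 in Vehicle and 10.90 ± 0.39 in Tamoxifen arrays (SD, n = 3 each), with differences of -0.90, -0.75 and -1.30 in lines 14843, 14844 and 14846. Its fitted difference of -0.98 ± 0.11 (SE) had an adjusted p of 0.013, and of 0.071 without line as a block. Sufu, which holds back the Gli factors, gave -0.37 ± 0.06. The median difference of the list was 0.04.

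Other microtubule motors and their regulators held 4 calls. Dynlt3, a light chain of cytoplasmic dynein, gave -0.95 ± 0.09 (SE), a 1.93-fold drop with an adjusted p of 0.0095 and 1 call among 8 tested dynein-1 and shared chains. The dynein regulator Ndel1 gave -0.40 ± 0.05 (SE), 1 of 10 in its list, and the kinesins Kif1b and Kif16b gave -0.39 ± 0.05 and -0.48 ± 0.08, 2 of 13. Of 8 tested ciliogenesis transcription factors, Foxj1, the master factor of motile cilia, fell from 8.27 ± 0.10 to 7.94 ± 0.04 (SD, n = 3 each), with an adjusted p of 0.028.

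**Figure D4:**
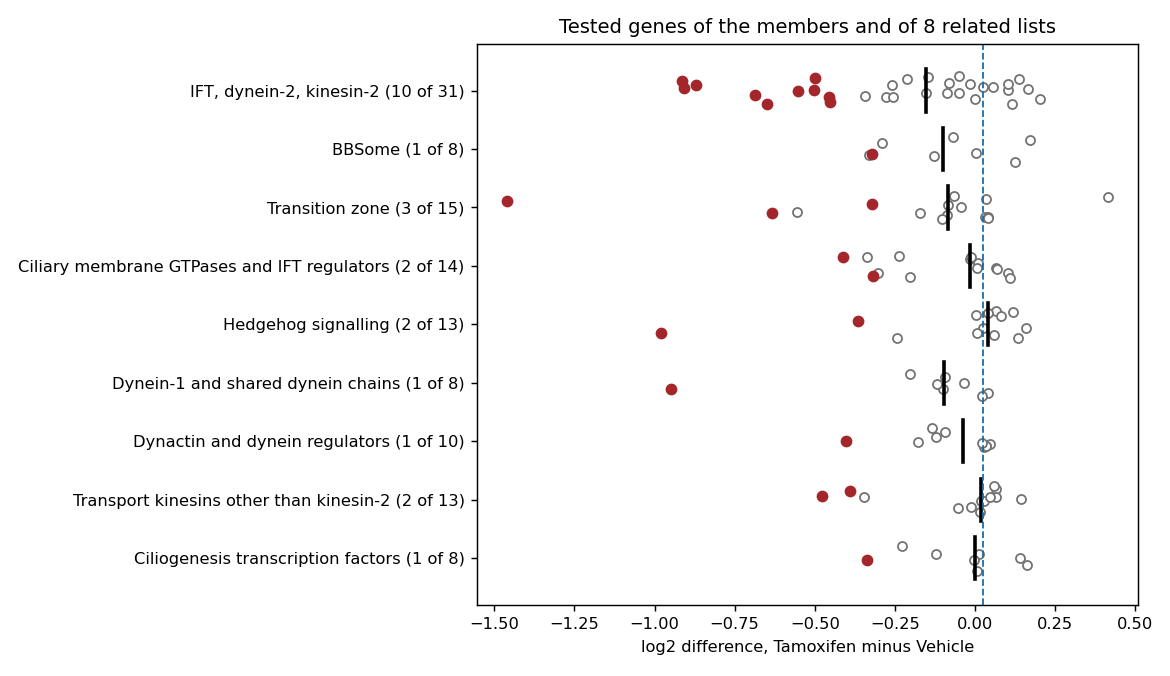
The log2 difference between Tamoxifen and Vehicle for tested genes of the members and of 8 lists of related genes; filled points have an adjusted p under 0.05, black bars are medians, the dashed line is the median of all tested genes at 0.03, and points are spread vertically for view. All filled points lie below 0, and the members hold 10 of them among 31 genes.

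Foxj1 is also a marker of multiciliated cells, so that list is given whole. Of its 15 markers 10 were below the filter, among them the axonemal genes Dnah5, Dnah9, Rsph1, Tekt1 and Hydin, and Foxj1 was the 1 called among the 5 tested. The summed linear intensity of the list spanned 1682 to 1750 in Vehicle and 1644 to 1716 in Tamoxifen arrays, which overlapped. Markers of B cells, myeloid cells, erythroid cells, NK cells and stroma had 0 called of 4, 7, 2, 3 and 5 tested, with 2 myeloid markers higher at an unadjusted p under 0.05. Their part in the members' values was not tested.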

How the data were processed

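RNA of 6 sorted samples was measured on one-colour Affymetrix arrays after biotin labelling of 200 ng of total RNA (Ambion WT kit), per the labels' protocols. Per the submitters' processing notes, the authors used RMA in Affymetrix Expression Console 1.1, and what they deposited is a linear intensity per probe set; RMA equalizes overall signal between arrays. Array medians were 202 to 208. Precision is limited by the number of arrays.

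Of 35556 probe sets, 21789 had 1 symbol and were used. The log2 was taken, the highest-mean probe set kept per gene, and 13956 genes at or above the 30th percentile were fitted with limma 3.58.1 in R 4.3.3 (line and treatment as terms, lmFit and eBayes, two-sided, Benjamini-Hochberg over all genes, adjusted p under 0.05 called). The design gives cells of each line to both treatments, and same-line deviations from group means correlated at 0.64, 0.68 and 0.68, so line was the block. Only the limma step was tested on simulated data, not the choice of probe sets or the filter. Members, lists and tests were chosen with earlier results of these data known. All 33 members are accounted for, with full values for called members and for others of small p. From each related list up to 4 called genes were named. Figures used Python 3.11.15. Alternatives covered the block, filters, centring, probe set choice, eBayes settings and each line left out.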

Additional observations from a re-analysis of the deposited data

How the results depend on the processing

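The 10 members that fell kept their direction under all 11 alternative settings in which they were tested, and 0 members were called higher under any. With line as a block removed (no pairing), 7 members were called, all among the 10, beside 275 genes lower and 20 higher overall and 4 related genes lower. With the dim filter at the 50th percentile only 20 members were tested and 5 called, beside 6.92% of all genes tested there called lower. The medians became 0.027 for IFT-A and -0.21 for the IFT-B core (also -0.21 without a filter). They were -0.34 for the IFT-B periphery and -0.57 for dynein-2 (-0.26 without a filter, and -0.45 with all probe sets averaged). Leaving out 1 line gave 1 to 9 members lower, 67 to 500 genes lower, 3 to 169 genes higher, and 2 to 8 related genes lower and 0 to 1 higher. For differences between lines it gave 0 to 1 members and 193 to 455 genes. These fits have fewer arrays. Centring arrays on the median of tested genes, chosen after seeing the data, kept all 10 members, left 9 related genes lower and gave 412 genes higher and 562 lower, so that lower genes made up 57.7% of calls against 79.1%, with 674 genes and 4 members differing between lines and an IFT-A median of 0.0098. Centring over genes or over all probe sets instead raised the share of lower genes among calls, to 85.0% and 83.3%. Centring on tested genes moved the median difference over all tested genes from 0.0255 to 0.0847, and the other centrings moved it to -0.0023 and 0.0119. Between lines 2 members were called with arrays centred over genes and 2 with trend and robust eBayes. Over the 10 called members and all settings a call was lost 15 times, spread over 9 members, and Ift27 and Ift80 gained one with arrays centred over genes. Signal near the dim filter limits Ift74, Ttc30b and Dync2li1.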
